A study of Mus musculus with 90 samples.

Results

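The genes described here are the small leucine-rich proteoglycans Dcn, Bgn, Aspn, Lum, Fmod, Prelp and Ogn, the large proteoglycan Vcan and the hyaluronan synthases Has1 and Has2. They were taken by symbol, 10 rows of the 55011 in the count table, and all 10 were found. The table holds 90 mouse libraries in 29 groups. In 44 of them, mesenchymal stromal cells of hindlimb muscle (MmSCs, 1000 cells a library, sorted as PDGFRa+ Sca1+ CD31- CD45-) were sequenced. The other libraries, made from 2 ng of RNA, were whole muscle (26) or heart and liver (20).

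The MmSC groups had 3 libraries each except as stated. Acute exercise (AEX, day 1) was set against sedentary (SED) mice in a cohort titled WT, and exercise training (EXT) against its own SED mice, all aged 8 to 10 weeks. A further cohort crossed AEX (day 1) with genotype. There, Cre-FL carried Pdgfra-Cre with floxed Piezo1 and Cre-WT carried Pdgfra-Cre with intact Piezo1, so both genotypes held the Cre. MmSCs of both genotypes were also sorted 1 day after cardiotoxin (CTX, a myotoxin of cobra venom used to injure muscle). Sorted cells were briefly cultured with 25 uM Yoda1, an agonist of the mechanically gated channel Piezo1, or with vehicle. This was done for 2 h (2 libraries, Cre-WT cells, against vehicle labelled 0 h), and for 4 h and 6 h against another vehicle group. For that group the labels give neither genotype nor hours in culture. At 2 h Yoda1 and time in culture cannot be told apart, and no vehicle group is labelled 4 h or 6 h. Whole tibialis anterior (TA) muscle of FL and WT mice, both again with Pdgfra-Cre, was taken 1, 3 and 7 days after CTX (4, 3 and 3 libraries a genotype). Uninjured quadriceps (3 a genotype), perfused heart (3) and perfused liver (4) were also taken, and perfused hearts (3) of a separate cohort 3 days after CTX in skeletal muscle. The Cre is driven by Pdgfra, a gene of stromal cells, so fibres, blood cells and hepatocytes are not targeted by design. In the cohort of genotype and AEX, titles and library names disagree by 1 place for 12 samples. Its columns were read as library names, and read as titles 4 of the 12 libraries would stand in another group.

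Small leucine-rich proteoglycans are secreted proteins of the extracellular matrix that bind collagen fibrils, set fibril diameter and spacing, and hold growth factors such as TGF-beta. Decorin (Dcn), biglycan (Bgn) and asporin (Aspn) form class I, lumican (Lum), fibromodulin (Fmod) and prolargin (Prelp) class II, and osteoglycin (Ogn) belongs to class III. Versican (Vcan) is a large chondroitin sulfate proteoglycan that binds hyaluronan, a long sugar chain made at the plasma membrane by the synthases Has1 and Has2, and versican and hyaluronan together form the loose matrix of early wounds. Fibroblast-like stromal cells are a main source of these genes in muscle.

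A library held 1806248 to 10258234 counts in MmSCs, 4051973 to 10226407 in muscle and 27461930 to 38376123 in heart and liver. Levels are CPM, the counts divided by the scaled library size of the cohort, and called genes are those with an adjusted p under 0.05 by edgeR's quasi-likelihood test, over all genes of the comparison. No label states that replicates were separate animals, so p-values measure the spread between these samples. In the MmSC libraries the 8 stromal markers summed to between 17700 and 112000 CPM, the macrophage markers to at most 28.8 CPM and the endothelial markers to at most 31.3 CPM. The stromal markers include the collagen genes Col1a1 and Col3a1, so their sum also follows collagen expression. Piezo1 itself was called lower in 0 of 10 comparisons of FL with WT (log2 -0.29 to 0.54, lowest adjusted p = 0.19 by edgeR). Counts summed over a gene need not show the loss of floxed exons, and the FL groups are mutant by their label.

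Of the 10 genes, 6 lie near another member in the mm10 genome (GENCODE M21). Dcn (chromosome 10, 97479609 to 97518143) and Lum (chromosome 10, 97565128 to 97572703) follow each other on the plus strand, with Kera and Epyc next. Aspn (chromosome 13, 49544443 to 49567565) and Ogn (chromosome 13, 49608046 to 49624501) stand on the plus strand beside Ecm2 and Omd. Prelp (chromosome 1, 133910304 to 133921414, minus strand) and Fmod (chromosome 1, 134037254 to 134048277, plus strand) also lie close together. Bgn is on chromosome X (73483602 to 73495933), Vcan on chromosome 13 (89655312 to 89742509), Has1 on chromosome 17 (17843323 to 17855205) and Has2 on chromosome 15 (56665627 to 56694539).

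The promoters of 4 of them are shown. Has1, Vcan and Aspn were each the only member called in some comparison, and Ogn is the neighbour of Aspn. Each is the 250 bases before the RefSeq start (GRCm38.p6), written 5′ to 3′ on the strand of the gene: Has1 at chr17:17855189-17855438 (minus strand), Vcan at chr13:89742513-89742762 (minus strand), Aspn at chr13:49544193-49544442 (plus strand) and Ogn at chr13:49607765-49608014 (plus strand). Capitals mark matches, on either strand, to the cAMP response element (TGACGTCA), AP-1 (TGANTCA), TEAD (GGAATG), the TATA box (TATAAA), the CCAAT box (CCAAT) and the CArG box.
Has1: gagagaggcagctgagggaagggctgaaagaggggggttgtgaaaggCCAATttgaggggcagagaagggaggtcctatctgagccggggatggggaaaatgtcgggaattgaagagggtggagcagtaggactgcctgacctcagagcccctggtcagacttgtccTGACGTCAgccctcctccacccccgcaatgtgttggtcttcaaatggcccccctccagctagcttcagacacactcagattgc
Vcan: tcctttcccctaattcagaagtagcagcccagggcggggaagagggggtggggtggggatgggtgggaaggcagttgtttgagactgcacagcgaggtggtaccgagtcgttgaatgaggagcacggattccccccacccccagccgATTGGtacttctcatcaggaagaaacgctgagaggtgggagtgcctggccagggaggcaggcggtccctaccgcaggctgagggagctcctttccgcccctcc
Aspn: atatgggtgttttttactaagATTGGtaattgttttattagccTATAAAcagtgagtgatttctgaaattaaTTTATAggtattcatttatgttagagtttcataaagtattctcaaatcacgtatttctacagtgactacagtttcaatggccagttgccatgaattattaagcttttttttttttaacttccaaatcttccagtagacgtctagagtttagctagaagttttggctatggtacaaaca
Ogn: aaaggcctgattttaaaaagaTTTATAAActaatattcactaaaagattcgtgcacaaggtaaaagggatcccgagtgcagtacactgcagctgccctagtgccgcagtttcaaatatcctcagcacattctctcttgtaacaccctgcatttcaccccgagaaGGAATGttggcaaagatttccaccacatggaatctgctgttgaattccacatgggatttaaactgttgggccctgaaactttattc

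The Has1 window holds a full cAMP response element 83 to 76 bases before the start, a match found in 508 of 32851 mouse promoter windows of this length (1.55%), and a CCAAT box 203 to 199 bases before it. The Vcan window holds a CCAAT box on the other strand (ATTGG) 103 to 99 bases before the start, and 33.8% of all windows hold a CCAAT box. In Aspn the matches are TATAAA 207 to 202 bases and its reverse TTTATA 178 to 173 bases before the start, with ATTGG 229 to 225 bases before it. In Ogn they are GGAATG 86 to 81 bases before the start and TTTATA and TATAAA overlapping each other 229 to 222 bases before it. TATAAA was found in 12.4% of windows, GGAATG in 12.6%, TGANTCA in 6.75% and the CArG box in 1.47%. GC content was 58.0% in the Has1 window, 62.4% in Vcan, 30.0% in Aspn and 42.0% in Ogn, so the neighbours Aspn and Ogn differ in base composition. Prelp, Fmod and Bgn also had an entry in the RefSeq table, and Dcn, Lum and Has2 are named only. A match in these windows is a description of letters and not a binding site.

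Decorin led the group in MmSCs. In Cre-WT SED cells the level per kb of the longest coding transcript was 13300 CPM per kb for Dcn, 2865 for Bgn, 1471 for Has1, 1224 for Lum, 414.0 for Prelp, 396.6 for Ogn, 303.9 for Aspn, 292.9 for Fmod, 29.5 for Vcan and 1.31 for Has2. Neighbours in this order from Prelp to Fmod did not differ beyond their spread, since the 3 libraries ran from 1137 to 1841 CPM for Prelp and from 79.1 to 1998 CPM for Fmod. The 7 small proteoglycans together took 1.70% ± 0.0492 (SD, n = 3) of all counts in Cre-FL CTX cells, the lowest group mean in MmSCs, and 4.18% ± 0.359 in Cre-FL SED cells, the highest. Dcn alone made up between 49.5% and 74.6% of the small proteoglycan counts of an MmSC library.

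**Figure D1:**
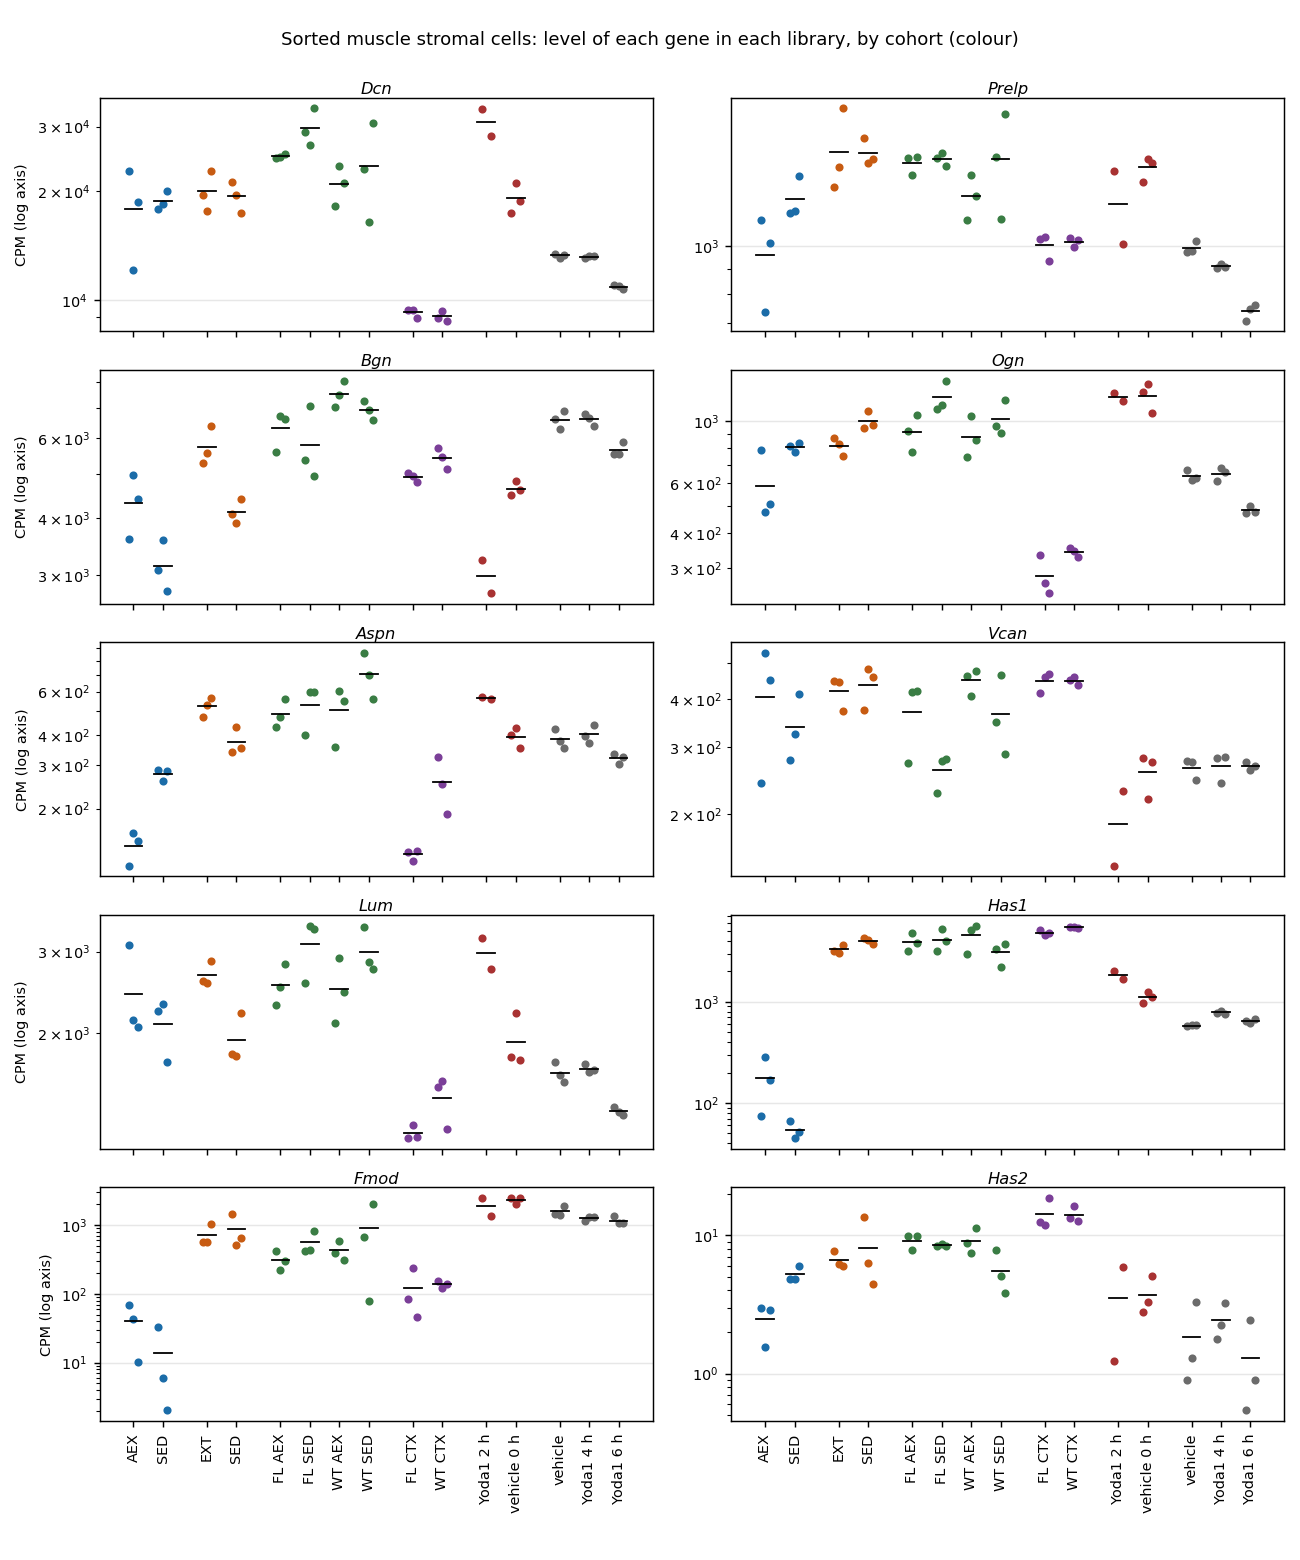
Level of each gene in CPM (log axis) in every MmSC library. Points are libraries, colours are the 6 cohorts and black bars are group means. Has1 differs more between cohorts than within them, lying between 45.1 and 66.8 CPM in the SED cells of the AEX cohort and between 3718 and 4277 CPM in the SED cells of the EXT cohort.

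Has1 and Fmod were the genes whose baseline depended most on the cohort. Among the 3 sedentary MmSC groups that share no libraries, mean Has1 was 54.4 CPM in the AEX cohort, 3082 CPM in Cre-WT mice and 4017 CPM in the EXT cohort, a ratio of 73.8 between the highest and the lowest. Mean Fmod was 13.6 CPM in the AEX cohort, 876.7 CPM in the EXT cohort and 913.7 CPM in Cre-WT mice, a ratio of 67.3. For the other 8 genes that ratio lay between 1.24 and 2.55. These cohorts were prepared and scaled apart, so the values are set side by side with no test. Fmod also varied within groups: the Cre-WT SED libraries held 664, 79.1 and 1998 CPM, and their summed tendon markers (Scx, Tnmd and Mkx) ranged from 19.3 to 96.9 CPM. In the AEX cohort, where Fmod was lowest, the tendon markers summed to between 2.97 and 5.62 CPM after AEX and between 0.732 and 12.5 CPM at rest. The part of tendon cells in the Fmod level was not tested.

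Whole tissues kept decorin in front but changed the order behind it. In WT quadriceps the order per kb was Dcn (387.0 CPM per kb), Fmod (128.6), Bgn (48.9), Ogn (29.9), Prelp (24.4), Lum (22.6), Aspn (8.11), Vcan (0.654) and Has1 (0.242), so that Fmod stood directly behind Dcn. Uninjured WT heart had Dcn at 428.2 CPM per kb, Bgn at 153.5, Ogn at 40.9, Lum at 33.1, Prelp at 26.4, Aspn at 7.75, Fmod at 5.65, Vcan at 1.44 and Has1 at 0.233. WT liver had Dcn at 107.6 CPM per kb, Bgn at 48.0, Prelp at 18.4, Lum at 4.57, Fmod at 0.928 and Ogn at 0.617. Aspn, Vcan and Has1 had between 0 and 19 counts in any liver library. Has2 had 0 counts in every uninjured heart and liver library, which allows up to 0.109 CPM at 3 counts a library, for counting error only. In bulk samples, fewer cells of a type and less RNA per cell cannot be told apart.

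**Figure D2:**
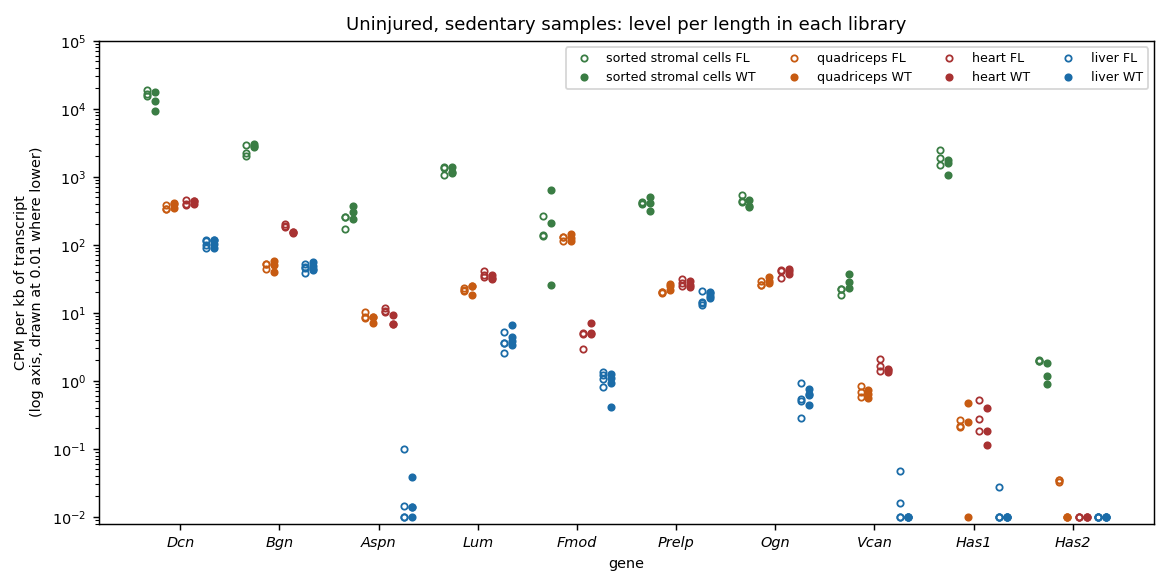
Level per kb of transcript (log axis, values under 0.01 drawn at 0.01) in uninjured, sedentary libraries. Open points are FL and filled points WT, and colours are MmSCs of the genotype cohort, quadriceps, heart and liver. Dcn leads in all 4, Fmod averages 128.6 in WT quadriceps and 292.9 in Cre-WT MmSCs, and Has2 is at 0 in uninjured heart and liver.

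Acute exercise lowered Aspn in the WT-titled cohort and no other member was called. Aspn, which binds collagen and TGF-beta, had 117, 160 and 148 CPM in AEX cells, against 288, 259 and 286 CPM in SED cells. Every AEX library lay below every SED library (log2 -0.97, SE 0.149, adjusted p = 0.0211 by edgeR). That is 1 of 10 members called, lower, where 94 of 12777 genes were called in all (0.736%) and 61 were lower (0.477%). Has1 had 74.2, 285 and 169 CPM in AEX cells, against 66.8, 45.1 and 51.4 CPM in SED cells. The AEX libraries were the higher ones but spread over a wide range, and the difference was not called (log2 1.69, SE 0.474, adjusted p = 0.189). Without the first AEX library Has1 was called (log2 2.05, adjusted p = 0.00205), as were Bgn (log2 0.57, adjusted p = 0.0349) and Ogn (log2 -0.73, adjusted p = 0.00549). The number of all genes called without this library is not given here.

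Bgn had 3600, 4971 and 4407 CPM in AEX cells, against 3080, 3589 and 2762 CPM in SED cells (log2 0.46, adjusted p = 0.268). Has2, the synthase of long hyaluronan chains, had 2.97, 1.54 and 2.89 CPM in AEX cells, against 4.80, 4.83 and 6.04 CPM in SED cells (log2 -1.06, adjusted p = 0.242), from at most 33 counts a library. Dcn overlapped between the groups, with 22620, 12100 and 18620 CPM in AEX cells, against 17850, 18330 and 19940 CPM in SED cells (log2 -0.07). The stromal markers summed to between 20900 and 30600 CPM after AEX and between 35100 and 37200 CPM at rest, and their part in the Aspn difference was not tested. Aspn itself lost its call without any 1 of the 3 SED libraries or without the third AEX library, with an adjusted p between 0.0599 and 0.108.

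After exercise training no member passed the test, and 3 collagen-binding members came closest. Bgn had 5300, 5565 and 6395 CPM in EXT cells, against 4095, 3895 and 4404 CPM in SED cells (log2 0.48, SE 0.112, adjusted p = 0.0806). Aspn had 472, 530 and 566 CPM in EXT cells, against 341, 432 and 354 CPM in SED cells (log2 0.48, adjusted p = 0.0881). Lum, which sets fibril spacing in cornea and skin, had 2596, 2561 and 2866 CPM in EXT cells, against 1804, 1781 and 2213 CPM in SED cells (log2 0.47, adjusted p = 0.0898). In each of the 3 every EXT library was above every SED library. Ogn and Has1 went the other way, with every EXT library below every SED library and no call. Ogn had 869, 828 and 749 CPM in EXT cells, against 941, 1089 and 970 CPM in SED cells. How many of all genes show such a lack of overlap was not counted. edgeR called 0 of 10 members, where 62 of 12802 genes were called (0.484%). An unadjusted p under 0.05 was found for 5 of 10 members and for 1570 of the 12802 genes. DESeq2 called these 3, but it called 225 of the 12802 genes in all where edgeR called 62. Without the third SED library edgeR called Lum (log2 0.58, adjusted p = 0.0402). Has1 had 3205, 3070 and 3631 CPM in EXT cells, against 4277, 4055 and 3718 CPM in SED cells, and was not called (log2 -0.28, adjusted p = 0.3).

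In the cohort with both genotypes no member was called in any comparison, and each value here rests on reading the columns as library names. Aspn had 358, 605 and 547 CPM in Cre-WT AEX cells, against 862, 700 and 562 CPM in Cre-WT SED cells. The libraries overlapped, and the difference (log2 -0.49, adjusted p = 0.34) had the sign seen in the WT-titled cohort without passing the test. Has1 had 2987, 5161 and 5668 CPM in Cre-WT AEX cells, against 3299, 2214 and 3733 CPM in Cre-WT SED cells (log2 0.58, adjusted p = 0.341). In Cre-FL mice Has1 had 3148, 4796 and 3838 CPM after AEX, against 3164, 5199 and 3985 CPM at rest, and here too the libraries overlapped.

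After AEX edgeR called 0 members in Cre-FL (24 genes called in all, 0.162%) and 0 in Cre-WT (147 of 14821 genes, 0.992%). An unadjusted p under 0.05 was found for 2 members in Cre-FL (1175 genes in all) and 3 in Cre-WT (1827 genes in all). Between Cre-FL and Cre-WT it called 0 members at rest (1 gene in all, 0.00675%) and 0 after AEX (0 genes in all). Here 1 member had an unadjusted p under 0.05 at rest (1094 genes in all) and 0 after AEX (814 genes in all). The test of whether the AEX difference itself depended on genotype called 0 members and 0 genes, with 0 members and 884 genes under an unadjusted p of 0.05. It gave log2 -0.65 for Has1 (SE 0.355, adjusted p = 0.85) and 0.37 for Aspn (SE 0.301, adjusted p = 0.912). DESeq2 called 0 members in all 5 comparisons. Over all genes it called 78 after AEX in Cre-FL and 461 after AEX in Cre-WT. Between the genotypes it called 46 genes at rest and 4 after AEX, and 10 for genotype by AEX. The stromal markers of the Cre-WT SED libraries summed to between 27400 and 112000 CPM, the widest spread of any MmSC group, and Dcn there ran from 16430 to 30800 CPM.

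At 1 day after cardiotoxin Aspn was lower in Cre-FL than in Cre-WT MmSCs. It had 134, 123 and 134 CPM in Cre-FL cells, against 325, 251 and 191 CPM in Cre-WT cells. All Cre-FL libraries were below all Cre-WT libraries (log2 -0.97, SE 0.177, adjusted p = 0.0469). This was the only member called, 1 of 10, where 232 of 12957 genes were called (1.79%) and 175 were lower (1.35%). Its neighbour Ogn had 334, 265 and 244 CPM in Cre-FL cells, against 353, 345 and 329 CPM in Cre-WT cells, and was not called (log2 -0.28, SE 0.0977, adjusted p = 0.189). Dcn was nearly level, with 9414, 9420 and 8936 CPM in Cre-FL cells, against 8936, 9354 and 8791 CPM in Cre-WT cells (log2 0.04, SE 0.0578).

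A further 2 genes of the small leucine-rich family fell in the same comparison, of 7 tested from a list of 11. Podn (podocan) averaged 192.3 ± 17.7 CPM in Cre-FL cells and 273.5 ± 38.8 CPM in Cre-WT cells (SD, n = 3 each, log2 -0.51, adjusted p = 0.0200). Ecm2, which lies beside Aspn on chromosome 13, averaged 84.6 ± 13.9 CPM in Cre-FL cells and 121.1 ± 6.57 CPM in Cre-WT cells (log2 -0.52, adjusted p = 0.0227). Hmmr, a hyaluronan receptor that also works in mitosis, averaged 17.4 ± 3.19 CPM in Cre-FL cells and 41.7 ± 9.59 CPM in Cre-WT cells (log2 -1.26, adjusted p = 0.00204), the only called gene of 14 tested in the list of hyaluronan turnover and binding. The stromal markers summed to between 19100 and 23600 CPM in Cre-FL cells and between 25400 and 31900 CPM in Cre-WT cells, and the tendon markers to between 10.4 and 28.5 CPM in Cre-FL cells and between 25.0 and 39.1 CPM in Cre-WT cells. Their part in these differences was not tested. Aspn was no longer called without any 1 of the 3 Cre-FL libraries or without the second Cre-WT library (adjusted p between 0.13 and 0.169). Lum was called lower without the third Cre-WT library (log2 -0.36, adjusted p = 0.00917) and Ogn without the first Cre-FL library (log2 -0.44, adjusted p = 0.0229).

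After 2 h with Yoda1, 4 members were higher and 1 was lower than with the vehicle labelled 0 h, so time in culture differed too. Dcn had 33450 and 28300 CPM with Yoda1, against 17380, 21040 and 18790 CPM with vehicle (log2 0.70, SE 0.132, adjusted p = 0.00854). Lum had 3205 and 2752 CPM with Yoda1, against 1773, 2209 and 1745 CPM with vehicle (log2 0.64, SE 0.146, adjusted p = 0.0195). Aspn had 569 and 562 CPM with Yoda1, against 399, 426 and 354 CPM with vehicle (log2 0.52, SE 0.141, adjusted p = 0.0378). In these 3 fibril-binding genes both Yoda1 libraries exceeded every vehicle library. Has1 had 2000 and 1667 CPM with Yoda1, against 970, 1250 and 1114 CPM with vehicle (log2 0.72, SE 0.149, adjusted p = 0.0128). Bgn went the other way from its class I relatives, with 3239 and 2736 CPM with Yoda1, against 4494, 4819 and 4625 CPM with vehicle (log2 -0.64, SE 0.130, adjusted p = 0.0122). The share of all counts taken by the 7 small proteoglycans was 4.14% ± 0.272 (SD, n = 2) with Yoda1 and 3.08% ± 0.176 (SD, n = 3) with vehicle.

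The 5 of 10 members called, 4 higher and 1 lower, compare with 1437 of 12782 genes (11.2%), of which 678 were higher (5.3%) and 759 lower (5.94%). Piezo1 averaged 26.6 ± 6.0 CPM with Yoda1 and 114.8 ± 17.8 CPM with vehicle (log2 -2.09, adjusted p = 0.00102). Ugdh, which makes the UDP-glucuronate used in hyaluronan and chondroitin sulfate, averaged 8921 ± 517 CPM with Yoda1 and 3979 ± 502 CPM with vehicle (log2 1.16, adjusted p = 0.000961). Cd44, the main hyaluronan receptor, averaged 1206 ± 73.2 CPM with Yoda1 and 1980 ± 308 CPM with vehicle (log2 -0.72, adjusted p = 0.0154). These were the only 2 called of 16 tested in the list of hyaluronan turnover and binding. Of the 6 versican-cleaving and aggrecan-cleaving proteases tested, 4 were lower, among them Adamts1 with 479.2 ± 43.2 CPM with Yoda1 and 1310 ± 128 CPM with vehicle (log2 -1.45, adjusted p = 0.000706) and Adamts4 with 135.4 ± 24.4 CPM with Yoda1 and 316.3 ± 46.2 CPM with vehicle (log2 -1.22, adjusted p = 0.00329). Of 24 chondroitin and dermatan sulfate synthesis genes 0 were higher and 3 lower, including the polymerising factor Chpf with 50.7 ± 13.3 CPM with Yoda1 and 119.7 ± 4.34 CPM with vehicle (log2 -1.25, adjusted p = 0.00549).

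The stromal markers summed to between 17700 and 18000 CPM with Yoda1 at 2 h and between 34700 and 38100 CPM with vehicle. Smooth muscle and pericyte markers summed to between 43.2 and 68.7 CPM with Yoda1 and between 129 and 186 CPM with vehicle, and tendon markers to between 259 and 310 CPM with Yoda1 and between 202 and 235 CPM with vehicle. None of these 3 sums overlapped between the groups, and their part in the differences of the members was not tested. Of the 8 stromal markers 3 were called lower and 0 higher, among the 3 the collagen genes Col1a1 and Col3a1. Col1a1 averaged 9770 CPM with Yoda1 and 17600 CPM with vehicle (log2 -0.85, adjusted p = 0.00217), and Col3a1 averaged 5760 CPM with Yoda1 and 15700 CPM with vehicle (log2 -1.44, adjusted p = 0.000706). The Yoda1 libraries were the shallowest of the cohort, with 3416913 and 1806248 counts, against 4667436 to 5621061 counts with vehicle, and depth was not tested as a cause. Without the first or without the third vehicle library 0 members were called, with log2 values between 0.45 and 0.72 for the genes that rose and of -0.65 and -0.64 for Bgn. The number of all genes called in these fits is not given here. Without the first Yoda1 library Fmod (log2 -0.79) and Prelp (log2 -0.54) were called lower as well, and without the second Vcan was (log2 -0.83), in each case with 1 Yoda1 library left and its spread taken from the vehicle libraries. Aspn also lost its call without the second vehicle library (adjusted p = 0.0604) and when no filter on low counts was used (log2 0.42, adjusted p = 0.201).

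After 4 h of Yoda1, Has1 alone was called. It had 776, 818 and 758 CPM with Yoda1, against 576, 586 and 584 CPM with vehicle (log2 0.43, SE 0.0509, adjusted p = 4.54e-07). The Yoda1 libraries were all higher, by far more than the spread of either group. This was 1 of 10 members, where 785 of 13756 genes were called (5.71%) and 493 were higher (3.58%). Dcn had 13070, 13200 and 13200 CPM with Yoda1, against 13410, 13090 and 13320 CPM with vehicle. The other small proteoglycans stood at log2 -0.12 to 0.06, apart from Fmod at -0.33. Prelp had 903, 923 and 908 CPM with Yoda1, against 972, 980 and 1024 CPM with vehicle. Fmod had 1149, 1291 and 1328 CPM with Yoda1, against 1450, 1390 and 1911 CPM with vehicle. Neither overlapped and neither was called, but without the filter on low counts edgeR called Fmod (log2 -0.38, adjusted p = 0.000627). Tnfaip6, which carries proteins onto hyaluronan, averaged 333.7 ± 22.9 CPM with Yoda1 and 242.1 ± 22.8 CPM with vehicle (log2 0.46, adjusted p = 1.73e-05). In the list of hyaluronan turnover and binding 3 of 17 tested genes were higher and 0 lower.

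At 6 h, 6 small proteoglycans were lower than with vehicle and Has1 was higher. Dcn had 10980, 10950 and 10720 CPM with Yoda1, against 13410, 13090 and 13320 CPM with vehicle (log2 -0.29, SE 0.0342, adjusted p = 1.14e-07). Prelp, a class II member that also binds heparan sulfate, had 709, 749 and 762 CPM with Yoda1, against 972, 980 and 1024 CPM with vehicle (log2 -0.42, SE 0.0480, adjusted p = 4.59e-08). Ogn had 472, 497 and 476 CPM with Yoda1, against 667, 614 and 625 CPM with vehicle (log2 -0.40, SE 0.0537, adjusted p = 1.03e-06). In each of these 3, all Yoda1 libraries lay below all vehicle libraries. Lum (log2 -0.28, adjusted p = 3.47e-05), Bgn (log2 -0.22, adjusted p = 0.000172) and Aspn (log2 -0.26, adjusted p = 0.00535) fell by similar amounts.

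Has1 had 653, 620 and 679 CPM at 6 h with Yoda1 (log2 0.16 against vehicle, SE 0.0510, adjusted p = 0.0295), all above the 3 vehicle libraries. The 7 of 10 members called, 1 higher and 6 lower, compare with 1822 of 13756 genes (13.2%), of which 898 were higher (6.53%) and 924 lower (6.72%). The median log2 value was -0.28 over the 10 members and 0.00 over all genes. Vcan was near level, with 273, 260 and 268 CPM with Yoda1, against 275, 273 and 246 CPM with vehicle (log2 0.01, SE 0.0642, adjusted p = 0.945). Fmod had 1360, 1058 and 1064 CPM with Yoda1, against 1450, 1390 and 1911 CPM with vehicle (log2 -0.45, adjusted p = 0.146), and DESeq2 called it. Has1 was not called without 1 library in 5 of the 6 cases (all but the second Yoda1 library, adjusted p between 0.0556 and 0.171), and Aspn not without the first vehicle library (adjusted p = 0.0712) or the second Yoda1 library (adjusted p = 0.0554). Without a filter on low counts Has1 was not called either (log2 0.11, adjusted p = 0.603), and with library size alone Aspn was not (log2 -0.17, adjusted p = 0.0765).

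Members were also lower at 6 h than at 4 h, although Prelp and Fmod already lay below all vehicle libraries at 4 h without a call. Set against the 4 h libraries, 7 of 10 members were lower at 6 h and 0 higher, where 1506 of 13756 genes were called (10.9%), 784 lower (5.7%) and 722 higher (5.25%). The log2 values were -0.43 for Ogn (SE 0.0538, adjusted p = 6.53e-07), -0.32 for Aspn, -0.30 for Prelp and Lum, -0.27 for Dcn and Has1 and -0.22 for Bgn. Has1 had thus 582 ± 5.65 CPM with vehicle, 784 ± 30.5 CPM at 4 h and 651 ± 29.9 CPM at 6 h (SD, n = 3 each). The 2 comparisons with vehicle share its libraries, and that of 6 h with 4 h shares libraries with both. Col1a1 (log2 -0.48, adjusted p = 3.65e-06) and Col3a1 (log2 -0.49, adjusted p = 2.17e-12) were lower at 6 h than with vehicle too. The stromal markers summed to between 88400 and 97400 CPM with vehicle, 81900 and 88800 CPM at 4 h and 64100 and 68300 CPM at 6 h, so that the 6 h libraries were all below the others. The tendon markers summed to between 135 and 165 CPM with vehicle, 121 and 152 CPM at 4 h and 96.4 and 141 CPM at 6 h, with overlap. Col1a1 and Col3a1 are themselves among the stromal markers, so a lower sum need not mean fewer stromal cells. The part of these sums in the differences was not tested.

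Related genes were called in both directions at 6 h. In the small leucine-rich family 3 of 7 tested genes were lower than with vehicle and 0 higher: Podn averaged 301.6 ± 8.12 CPM with Yoda1 and 427.6 ± 23.2 CPM with vehicle (log2 -0.50, adjusted p = 4.92e-08), Ecm2 had log2 -0.34 and Kera log2 -0.51. Adamts1, a protease that cuts versican, averaged 956.1 ± 56.7 CPM with Yoda1 and 514.9 ± 51.0 CPM with vehicle (log2 0.89, adjusted p = 3.61e-11) and was the 1 called of 6 proteases tested. Of 24 chondroitin and dermatan sulfate synthesis genes 5 were higher and 2 lower, with Chpf at log2 0.79 and B3galt6, a linker galactosyltransferase, also at log2 0.79. Of 17 genes of hyaluronan turnover and binding 3 were higher and 1 lower. Cd44 averaged 1267 ± 30.0 CPM with Yoda1 and 1020 ± 26.6 CPM with vehicle (log2 0.31, adjusted p = 2.91e-05). Adamts1 and Cd44 thus stood higher with Yoda1 at 6 h and lower with Yoda1 at 2 h, each against its own vehicle. The 2 h and the 6 h libraries belong to different cohorts, and Dcn, Lum and Aspn also differed in sign between them, a difference that was not tested.

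**Figure D3:**
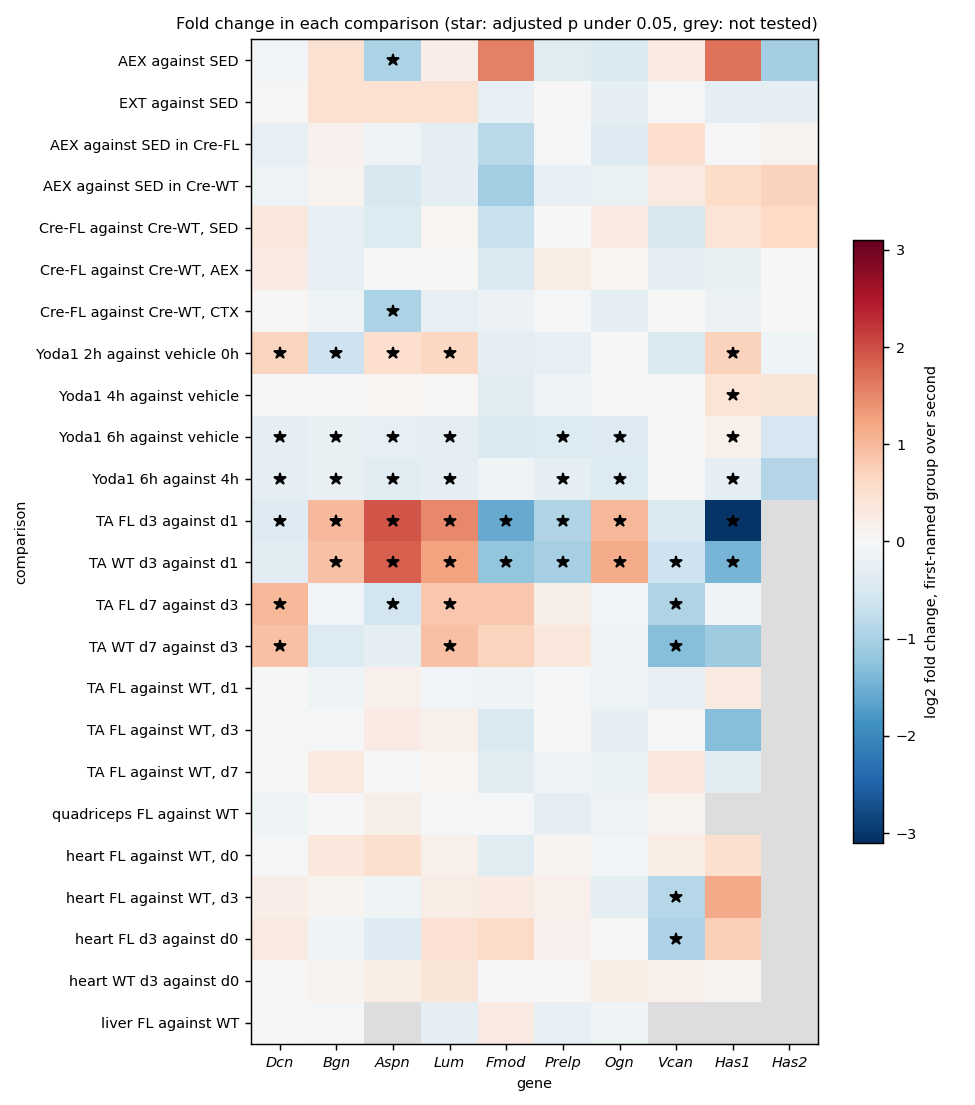
Log2 fold change of each gene (columns) in 24 comparisons (rows), first-named group over second, with red higher and blue lower. Stars mark an adjusted p under 0.05 and grey cells were not tested. Among these rows, injured muscle holds the lowest value (Has1 at -3.05) and the highest (Aspn at 1.95), both between days 3 and 1 in FL, and the rows of FL against WT carry stars only for Aspn in CTX MmSCs and Vcan in heart at day 3.

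In injured muscle the 10 genes followed different courses. Has2 had at most 16 counts in a TA library and was not tested, so 9 were. From day 1 to day 3 after CTX, Aspn, Lum, Ogn and Bgn were higher at day 3 and Prelp, Fmod and Has1 lower in both genotypes, with Vcan called lower in WT and Dcn in FL. That made 8 of 9 tested members called in FL, where 44.6% of 15499 genes were called (22% higher and 22.6% lower), and 8 of 9 in WT, where 26.8% were (14.1% higher and 12.6% lower). Between days 3 and 7 Dcn and Lum rose and Vcan fell in both, and the calls were 4 of 9 in FL (52.7% of genes, 25.8% higher and 27% lower) and 3 of 9 in WT (42.5%, 20.1% higher and 22.4% lower). The 2 steps share the day 3 libraries. Day 7 against day 1 called 8 of 9 members in FL (39.2% of genes, 19% higher and 20.2% lower) and 8 of 9 in WT (44.5%, 21.7% higher and 22.8% lower). Lum, Aspn, Ogn, Bgn and Dcn were higher and Prelp, Vcan and Has1 lower at day 7 in both, while with library size alone Dcn was not called in either (log2 0.25 in FL and 0.10 in WT) and Bgn in WT turned to log2 -0.00495, also not called. Bgn lost that call in WT without the second or the third day 7 library or the third day 1 library (adjusted p between 0.0841 and 0.151). Fmod was called lower in FL without the second day 7 library (log2 -1.44, adjusted p = 0.00212) and in WT without the first (log2 -1.01, adjusted p = 0.0455). With library size alone edgeR called Fmod lower in FL (log2 -1.12, adjusted p = 0.00835) and in WT (log2 -1.05, adjusted p = 0.0101).

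Aspn had 29.1, 33.8, 37.1 and 25.3 CPM in FL at day 1, 102, 135 and 126 CPM at day 3 and 72.0, 85.3 and 81.9 CPM at day 7. In WT it had 29.1, 32.4, 21.9 and 29.6 CPM at day 1, 55.9, 122 and 128 CPM at day 3 and 55.8, 97.6 and 96.4 CPM at day 7. All later libraries of both genotypes were above all day 1 libraries, and day 3 was called above day 1 in FL (log2 1.95, SE 0.229, adjusted p = 3.30e-07) and in WT (log2 1.85, SE 0.228, adjusted p = 2.02e-06). Day 7 was below day 3 in FL (log2 -0.61, adjusted p = 0.0381), a call lost without any 1 of the 3 day 7 libraries or of the last 2 day 3 libraries (adjusted p between 0.0570 and 0.122). In WT this difference was not called, except without the first day 3 library (log2 -0.59, adjusted p = 0.0281 by edgeR) or with library size alone (log2 -0.96, adjusted p = 0.00208 by edgeR).

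Lum climbed throughout. It had 60.8, 62.1, 94.1 and 77.4 CPM in FL at day 1, 207, 199 and 212 CPM at day 3 and 354, 303 and 439 CPM at day 7. WT libraries held 80.3, 73.3, 67.4 and 91.4 CPM at day 1, 188, 185 and 185 CPM at day 3 and 246, 358 and 441 CPM at day 7. No library of a later day overlapped an earlier day in either genotype, and day 7 stood above day 1 by log2 2.31 in FL (SE 0.178, adjusted p = 9.08e-10) and 2.16 in WT (SE 0.177, adjusted p = 1.68e-09). Ogn averaged 49.1 ± 6.88 CPM in FL at day 1, 99.98 ± 16.1 CPM at day 3 (log2 1.03 against day 1, adjusted p = 1.35e-05) and 94.4 ± 11.1 CPM at day 7 (log2 -0.08 against day 3, adjusted p = 0.707). In WT it averaged 54.8 ± 9.54 CPM at day 1, 121.3 ± 27.4 CPM at day 3 and 109.6 ± 5.63 CPM at day 7.

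Dcn had its lowest mean at day 3 and its highest at day 7. It averaged 759 ± 102 CPM in FL at day 1, 573 ± 104.5 CPM at day 3 and 1167 ± 66.7 CPM at day 7, and in WT 755 ± 72.1, 602 ± 67.2 and 1135 ± 180 CPM. Day 7 exceeded day 3 in FL (log2 1.03, SE 0.170, adjusted p = 1.85e-05) and in WT (log2 0.91, SE 0.170, adjusted p = 0.000115), with no overlap. Day 3 was called below day 1 in FL (log2 -0.41, adjusted p = 0.0411, but 0.02 and not called with library size alone) and not in WT (log2 -0.33, adjusted p = 0.134). Bgn took another course, at 432 ± 36.1 CPM in FL at day 1, 866 ± 213 CPM at day 3 and 823 ± 136 CPM at day 7, and in WT at 476 ± 49.8, 895 ± 22.7 and 665 ± 148 CPM. Per kb, Bgn at 370.0 CPM per kb thus passed Dcn at 342.4 in WT at day 3, while Dcn led at day 1 (429.2 against 196.8) and day 7 (645.5 against 274.8). The rise of Bgn by day 3 was called in FL (log2 1.00, adjusted p = 4.86e-05) and in WT (log2 0.91, adjusted p = 0.000322).

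Vcan and Has1 were highest at day 1. Vcan had 124, 81.5, 88.7 and 79.8 CPM in FL at day 1, 84.8, 51.2 and 71.3 CPM at day 3 and 39.8, 29.7 and 38.8 CPM at day 7. In WT it had 88.1, 136, 94.2 and 129 CPM at day 1, 77.5, 73.3 and 63.3 CPM at day 3 and 17.2, 35.6 and 32.7 CPM at day 7. Day 7 was lowest in both genotypes without overlap, and it was below day 1 by log2 -1.37 in FL (SE 0.229, adjusted p = 4.63e-05) and -1.97 in WT (SE 0.235, adjusted p = 4.87e-07). Has1 had 11.2, 14.7, 10.4 and 13.0 CPM in FL at day 1, 1.38, 0.849 and 2.23 CPM at day 3 and 1.22, 0.515 and 2.20 CPM at day 7. WT muscle had 4.28, 11.0, 11.7 and 13.7 CPM at day 1, 3.49, 3.47 and 4.20 CPM at day 3 and 0.340, 4.15 and 0.614 CPM at day 7. Day 1 was the highest day in both (day 3 against day 1 log2 -3.05, adjusted p = 6.99e-05 in FL and log2 -1.44, adjusted p = 0.0285 in WT).

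Fmod and Prelp, abundant at day 1, fell by day 3. Fmod averaged 276 ± 54.3 CPM in FL at day 1, 93.7 ± 24.7 CPM at day 3 and 168 ± 117 CPM at day 7, and in WT 305 ± 38.5, 130 ± 34.4 and 211 ± 105 CPM. Day 7 libraries spread from 75.3 to 300.2 CPM in FL and from 131 to 330 CPM in WT, so the later course of Fmod could not be resolved. Prelp averaged 138 ± 21.1 CPM in FL at day 1, 71.8 ± 12.2 CPM at day 3 and 81.7 ± 15.3 CPM at day 7, and in WT 144 ± 12.4, 70.8 ± 3.97 and 90.2 ± 7.95 CPM. Both genotypes had Prelp lower at day 3 than at day 1 (log2 -0.94, adjusted p = 1.71e-05 in FL and log2 -1.02, adjusted p = 1.56e-05 in WT).

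**Figure D4:**
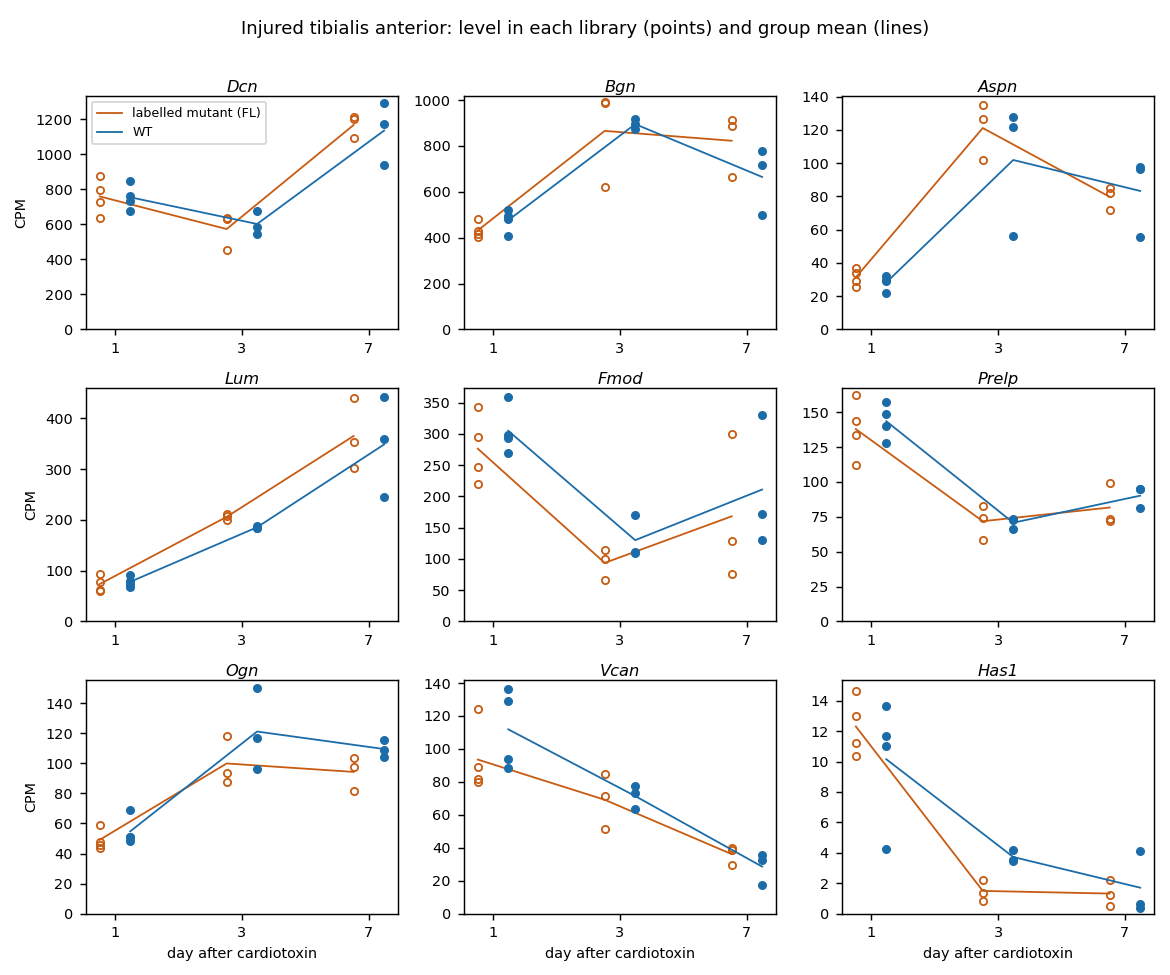
Level in CPM of the 9 tested genes in TA muscle 1, 3 and 7 days after CTX. Points are libraries, lines join group means, open orange is FL and filled blue WT. Lum rises at each step, Aspn peaks at day 3 (mean 121 in FL and 102 in WT), Vcan and Has1 are highest at day 1, and the genotypes overlap at nearly every point. With library size alone the sign of Dcn between days 1 and 3 in FL, of Prelp between days 3 and 7 in FL and of Bgn between days 1 and 7 in WT turns.

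The summed markers of several cell types changed at the same time. The macrophage markers summed to between 2230 and 3190 CPM in FL at day 1, 7440 and 7960 CPM at day 3 and 914 and 1480 CPM at day 7, and in WT to between 2480 and 3780, 6080 and 7820, and 803 and 1390 CPM. Stromal markers summed to between 3080 and 3810 CPM in FL at day 1, 5060 and 11400 CPM at day 3 and 12900 and 19700 CPM at day 7, and in WT to between 4280 and 5000, 10800 and 12000, and 10200 and 15800 CPM. Fibre markers were lowest at day 3, between 3640 and 13500 CPM in FL and between 29700 and 49900 CPM in WT. The part of these shifts in the courses above was not tested. With library size alone, the median of all genes moved by log2 -0.82 in FL and -0.72 in WT between days 3 and 7 and by 0.43 in FL and 0.21 in WT between days 1 and 3. Dcn and Lum then stood at no more than log2 0.23 between days 3 and 7 and were not called, and Vcan still fell. Bgn, Ogn and Aspn were called lower at day 7 in both genotypes, as were Prelp in FL and Has1 in WT. Over all genes this scaling called 10143 between these days in FL and 8875 in WT.

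Between day 3 and day 1 in WT, Vcan, Has1 and Fmod lost their calls without single libraries. Vcan did so without any day 3 library or without the last day 1 library or the second (log2 -0.54 to -0.71, adjusted p between 0.0515 and 0.104). Has1 did so without any day 3 library or without any day 1 library but the first (log2 -1.27 to -1.54, adjusted p between 0.0536 and 0.0960), and Fmod without the first or second day 3 library (adjusted p between 0.0736 and 0.0872). With library size alone Vcan (log2 -0.45, adjusted p = 0.194) and Has1 (log2 -1.24, adjusted p = 0.0627) were not called in WT, nor was Fmod without a filter on low counts (adjusted p = 0.0856). In FL the lower Dcn of day 3 was not called without the first day 3 library or any day 1 library but the first (log2 -0.26 to -0.42, adjusted p between 0.0585 and 0.215), nor in a fit of only the 2 groups (log2 -0.40, adjusted p = 0.122). Without the first day 3 library Vcan was called in FL too (log2 -0.61, adjusted p = 0.0479). Between days 7 and 3, Has1 was called lower in WT without the second day 7 library (log2 -2.90, adjusted p = 0.0012) and Bgn without the third (log2 -0.56, adjusted p = 0.0397), and Fmod was called higher in FL without the first day 7 library (log2 1.19, adjusted p = 0.00853).

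No member was called between FL and WT muscle on any day. At day 3, where 1392 of 15499 genes were called between the genotypes (8.98%), 0 of 9 members were. An unadjusted p under 0.05 was found for 1 member (3577 genes in all). That one was Has1, with 1.38, 0.849 and 2.23 CPM in FL, against 3.49, 3.47 and 4.20 CPM in WT (log2 -1.32, SE 0.57, adjusted p = 0.157), from 8 to 36 counts a library. The FL libraries were all lower, and the difference was called when no filter on low counts was used (adjusted p = 0.0439). At day 1 edgeR called 0 of 9 members (12 genes in all, 0.0774%) and at day 7 also 0 (0 genes in all). On both days 0 members had an unadjusted p under 0.05 (893 genes in all at day 1 and 737 at day 7). The joint test of genotype with day called 0 members (603 genes in all, 3.89%), again with 0 under an unadjusted p of 0.05 (2759 genes in all). DESeq2 called 0 members in all 4 comparisons. Over all genes it called 47 at day 1, 1827 at day 3, 0 at day 7 and 1085 in the joint test. For Lum the difference at day 7 was log2 0.07 (SE 0.186) and for Dcn 0.04 (SE 0.169), with 354, 303 and 439 CPM of Lum in FL, against 246, 358 and 441 CPM in WT.

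Uninjured quadriceps, heart and liver gave no call between FL and WT. In quadriceps edgeR called 0 of 8 tested members and 0 genes, with 1 member under an unadjusted p of 0.05 (771 of 11856 genes in all). That was Prelp, with 71.2, 73.8 and 74.0 CPM in FL, against 77.2, 90.6 and 96.8 CPM in WT (log2 -0.27, SE 0.0889, adjusted p = 0.758). Uninjured heart had 0 of 9 members and 0 genes called, with 1 member under an unadjusted p of 0.05 (778 of 18433 genes in all). There Bgn had 444, 459 and 489 CPM in FL, against 378, 377 and 359 CPM in WT (log2 0.32, SE 0.108, adjusted p above 0.99), so the FL libraries were all higher without a call. In liver 0 of 6 tested members and 0 genes were called, and 0 members had an unadjusted p under 0.05 (525 of 14534 genes in all). DESeq2 called 0 members in these 3 comparisons, where over all genes it called 0 in quadriceps, 10 in heart and 14 in liver.

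Versican was lower in the hearts of FL mice 3 days after injury of their skeletal muscles. It had 9.69, 12.4 and 10.4 CPM in FL hearts, against 15.4, 25.0 and 19.5 CPM in WT hearts at day 3 (log2 -0.88, SE 0.198, adjusted p = 0.0309). All FL libraries lay below all WT libraries. It was 1 of 9 members called, where 722 of 18433 genes were called (3.92%) and 430 were lower (2.33%). Against uninjured FL hearts, with 20.3, 26.0 and 17.4 CPM, it was lower as well (log2 -0.97, SE 0.199, adjusted p = 0.0188), 1 of 9 members where 875 genes were called (4.75%) and 497 were lower (2.7%). Both comparisons use the same FL libraries of day 3, so they are not independent. WT hearts had overlapping values, with 15.4, 25.0 and 19.5 CPM at day 3, against 17.0, 18.6 and 18.1 CPM uninjured (log2 0.16, SE 0.196). There edgeR called 0 of 9 members (19 genes in all, 0.103%), with 0 under an unadjusted p of 0.05 (990 genes in all). DESeq2 called 0 members there (88 genes in all).

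The test of the difference between those changes gave log2 -1.12 for Vcan (SE 0.279, adjusted p = 0.281 by edgeR). There edgeR called 0 members and 0 genes, and 1 member had an unadjusted p under 0.05 (2085 genes in all). DESeq2 called Vcan (adjusted p = 0.0271), where it called 123 genes in all. Day 3 and uninjured hearts were separate cohorts, so day and cohort cannot be told apart. The first FL heart of day 3 stood apart, with 4.93 CPM of Aspn beside 31.8 and 20.9 CPM in the other 2, and 28.5 CPM of Ogn beside 137 and 137 CPM. Without it Dcn was called higher in FL than in WT at day 3 (log2 0.33, adjusted p = 0.0375), and Dcn (log2 0.41) and Ogn (log2 0.45) higher than in uninjured FL hearts. The Vcan call between genotypes was lost without any WT library or the third FL library (log2 -0.70 to -1.03, adjusted p between 0.0539 and 0.142) and that against uninjured FL hearts without the second or the third uninjured library or the third day 3 library (log2 -0.80 to -1.005, adjusted p between 0.0537 and 0.0823). In fits of only the 2 groups Vcan was called in neither comparison (adjusted p = 0.0995 between genotypes and 0.138 against uninjured FL hearts). Smooth muscle and pericyte markers summed to between 366 and 826 CPM in FL hearts at day 3 and between 670 and 762 CPM in WT hearts, and their part was not tested.

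Further genes of these pathways were called in injured muscle. From day 1 to day 3, Adamts1 fell to 34.7 ± 7.69 CPM in FL, against 191 ± 20.8 CPM at day 1 (log2 -2.47, adjusted p = 1.52e-10), and to 54.0 ± 2.11 CPM in WT, against 155.9 ± 29.9 CPM (log2 -1.53, adjusted p = 3.19e-07). Podnl1, another small leucine-rich gene, averaged 0.527 CPM in FL at day 1, 15.3 CPM at day 3 and 0.68 CPM at day 7, and in WT 0.641, 12.4 and 0.613 CPM. Cd44 fell to 57.8 ± 2.69 CPM in FL at day 7, against 278 ± 60.5 CPM at day 3 (log2 -2.27), and to 59.5 ± 13.9 CPM in WT, against 215 ± 25.2 CPM (log2 -1.85). Itih5, whose relatives carry chains that are transferred to hyaluronan, rose to 156 ± 26.1 CPM in FL at day 7, against 28.7 ± 8.26 CPM at day 3 (log2 2.43), and to 148 ± 20.7 CPM in WT, against 49.9 ± 19.2 CPM (log2 1.57). Of 24 tested chondroitin and dermatan sulfate synthesis genes, 10 were lower and 2 higher at day 7 than at day 3 in FL and 11 lower and 0 higher in WT. Over all genes 27% were lower and 25.8% higher in FL, and 22.4% lower and 20.1% higher in WT. Among the lower genes was Dse, the epimerase that makes dermatan sulfate, at log2 -1.71 in FL and -1.68 in WT.

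Adamts1 was also lower in FL than in WT at day 3 (34.7 ± 7.69 CPM in FL and 54.0 ± 2.11 CPM in WT, log2 -0.64, adjusted p = 0.0244), and Ugdh was higher (76.6 ± 16.6 CPM in FL and 45.7 ± 7.78 CPM in WT, log2 0.75, adjusted p = 0.0308). In MmSCs after AEX 1 gene of the 7 lists was called in the WT-titled cohort, Cemip2, a cell surface protein linked to hyaluronan breakdown, with 12.2 ± 0.738 CPM after AEX and 4.68 ± 0.915 CPM at rest (log2 1.37, adjusted p = 0.0495). In Cre-WT cells it was Csgalnact1, which starts chondroitin sulfate chains, with 111 ± 15.9 CPM after AEX and 44.5 ± 5.37 CPM at rest (log2 1.32, adjusted p = 0.00296), beside Itih5 with 864.5 ± 65.9 CPM after AEX and 1421 ± 214 CPM at rest (log2 -0.72, adjusted p = 0.0347). Chpf averaged 104.9 ± 16.3 CPM in Cre-FL cells after AEX and 54.4 ± 6.73 CPM in Cre-FL cells at rest (log2 0.95, adjusted p = 0.0336). Between genotypes Chpf averaged 54.4 ± 6.73 CPM in Cre-FL cells at rest and 122 ± 15.9 CPM in Cre-WT cells at rest (log2 -1.17, adjusted p = 0.0244), and was the single gene called there. Both Chpf comparisons use the same Cre-FL libraries at rest, and both rest on reading the columns as library names. The receptors of soluble biglycan and decorin, Tlr2 and Tlr4, were called lower at day 7 than at day 1 in both genotypes of TA muscle (Tlr2 log2 -1.16 in FL and -1.50 in WT, Tlr4 log2 -1.03 in FL and -1.17 in WT).

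Across the 44 MmSC libraries, after the mean of each cohort was taken off log2(CPM + 1), each member was set beside all genes of at least 5 CPM. The closest were Serping1 for Dcn (Pearson r 0.929) and Slc43a3 (0.853), Igsf3 (0.789) and Angptl1 (0.758) for Lum, Cilp (0.857) and Itga5 (0.84) for Bgn, and Chad (0.83) and Kera (0.706) for Fmod. Ogn and Prelp shared Selenop among their 2 closest genes (0.784 and 0.767), beside Il11ra1 (0.809) for Ogn and Tcp11l2 (0.743) for Prelp, and Aspn had Prnp (0.732) and Ifi27l2a (0.723). Vcan lay closest to Ipo4 (0.803) and Calr (0.772), Has1 to Nop58 (0.904) and Eif1a (0.898), and Has2, which had few counts, to Klf4 (0.582) and Ei24 (0.559). Between members the lowest value was that of Dcn with Vcan (-0.735) and the highest that of Ogn with Prelp (0.597). These values include the differences between conditions and any difference in depth and composition that libraries share, and are given as a description with no test.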

How the data were processed

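The authors' deposited table holds raw counts per gene symbol for 90 libraries. Per the submitters' processing notes, the genome was mm10, the aligner STAR 2.7.3a and the counter featureCounts. Neither strandedness nor annotation is given in the sources used here. Column names gave the sample for 78 columns and only the group for the 12 of the cohort of genotype and AEX, whose names were read as library names, since titles disagree with them by 1 place. From these deposited counts, edgeR 4.0.16 (R 4.3.3, limma 3.58.1) fitted 1 quasi-likelihood model per cohort (for heart, 1 model over the uninjured and the day 3 hearts, although the day 3 hearts are a separate cohort), with filterByExpr (minimum count 10), TMM scaling and robust estimation. P-values were adjusted by Benjamini-Hochberg over all genes tested, and a gene was called at an adjusted p under 0.05. Levels are CPM with the TMM factors, and levels between genes are per kb of the longest coding transcript. There were 25 planned comparisons and 4 added ones (Yoda1 6 h against 4 h, TA day 7 against day 1 in each genotype, and genotype by day in heart). DESeq2 1.42.0, RLE scaling, no filter, a replicate block, fits of only the 2 groups, leaving out each library and, added after the data were seen, library size without scaling factors were tried. The steps were tested on simulated data. No pair of replicates agreed within sampling noise (smallest chi-square per gene 2.75).

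The members and lists were chosen with earlier results of these data known. All 10 members are named in each comparison's counts. From 7 pathway lists (82 genes) the counts of called genes and up to 3 called genes with the smallest adjusted p were taken, and 12 marker lists (46 genes) were summed. For each member the 2 genes with the highest Pearson r over the 44 MmSC libraries are named (mean of at least 5 CPM, no predicted genes). Promoters are from RefSeq (GRCm38.p6), where 7 of 10 members had an entry. Figures were drawn with matplotlib 3.10.9 (Python 3.11.15).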

Additional observations from a re-analysis of the deposited data

Results flagged for a closer look

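Of 37 sets of libraries tested for a value far from the others (4 libraries of 1 group, 1 gene), 4 stood out, and chance alone gives about 1 in 20. Ogn in WT TA muscle at day 1 had 68.9 CPM in its highest library, beside 48.2 to 51.1 CPM in the others. In liver, where these genes had between 0 and 19 counts a library, Aspn had 0.234 CPM in the highest FL library and Has1 0.0581 CPM in the highest FL library, and Vcan had 0.0994 CPM in the highest WT library.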

How the results depend on the processing

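Counts of members called moved by over 1.5 times as follows. Without the filter on low counts they were 3 in EXT against SED (0 in the report), 1 in AEX against SED in Cre-WT (0), 3 in Cre-FL against Cre-WT after CTX (1), 2 with Yoda1 at 4 h (1), 1 in TA FL against WT at day 3 (0), 2 in heart FL day 3 against day 0 (1) and 1 for genotype by day in heart (0). DESeq2 gave 3 in EXT (0), where it called 225 genes in all (62 in the report). It gave 1 for genotype by day in heart (0), where it called 123 genes in all (0). Fits of only the 2 groups gave 0 in heart FL against WT at day 3 (1) and 0 in heart FL day 3 against day 0 (1). Counts over all genes are not given here for these fits or for those without the filter. Library size alone, added after the data were seen, gave 5 in TA WT day 7 against day 3 (3), where it called 8875 genes in all (6590).

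With library size alone 3 values turned: Dcn in TA FL day 3 against day 1 was 0.023 (log2 -0.41 in the report), Prelp in TA FL day 7 against day 3 was -0.64 (0.19), and Bgn in TA WT day 7 against day 1 was -0.00495 (0.48). Beside the shifts given for TA days, this scaling moved the median of all genes by log2 -0.51 in WT and -0.38 in FL between days 7 and 1, by 0.13 in TA FL against WT at day 3, by -0.125 in heart FL against WT at day 3 and by -0.124 in heart FL day 3 against day 0. RLE scaling changed no call. The cause of these changes was not tested.

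With the replicate number as a block the count was 2 in AEX against SED (1, Fmod added), 0 with Yoda1 at 2 h (5), 5 in TA WT day 3 against day 1 (8), 2 in heart FL against WT at day 3 (1) and 3 in heart FL day 3 against day 0 (1). Over all genes, in the same order, the block called 115 (94 in the report), 460 (1437) and 3730 (4149) genes. In the 2 heart comparisons it called 1358 (722) and 1419 (875) genes. The deviations of samples with the same number correlated by -0.268 to 0.433, and in no comparison by over 0.1 in every pair, so the numbers were not taken to pair the samples. In TA WT day 3 against day 1, where the block lowered the count, all 3 were above 0 (0.0487 to 0.177). No block was fitted in the cohort of genotype and AEX, where a column's name and number stand for different samples in the titles and in the library names.

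Leaving out 1 library gave 0 to 4 members called in AEX, 0 to 1 in EXT, 0 to 2 in CTX, 0 to 7 with Yoda1 at 2 h, 1 at 4 h, 5 to 6 at 6 h and 7 for 6 h against 4 h. It gave 5 to 8 in TA WT and 7 to 8 in TA FL for day 3 against day 1, 3 to 4 in both for day 7 against day 3, 7 to 9 in WT and 8 to 9 in FL for day 7 against day 1, 0 to 2 in heart FL against WT at day 3, 0 to 3 in heart FL day 3 against day 0, and 0 in the other comparisons. Has2, with at most 16 counts in a TA library, was not tested there. Counts over all genes are not given for the fits without 1 library. Whether the members' calls shifted more than those of all genes was therefore not tested.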
